A study of Mus musculus with 24 samples.

Results

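The comparison described here asks what bone marrow derived macrophages without intact Trem2 still do when they meet the products of dying liver cells. It sets 8 treated against 3 untreated Trem2 knockout libraries, 11 of the 24 libraries in the series. The treated libraries are 4 with medium conditioned by apoptotic cells (ACM, libraries 85 to 88) and 4 with the lipid sphingosine 1-phosphate (S1P, libraries 91 to 94), and the untreated ones are libraries 79, 80 and 82. The libraries were chosen by their labels, except that the library labelled knockout untreated 81 was left out because its Trem2 level was that of wild-type cells.

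All macrophages were grown from the marrow of C57BL/6 mice for 7 days with conditioned medium from L929, a line of fibroblasts that secretes the macrophage growth factor Csf1. ACM was collected over 24 h, without serum, from AML12 cells, a mouse hepatocyte line made apoptotic with 800 µM palmitic acid, and S1P was given at 500 nM. Both exposures lasted 24 h. The labels give both genotypes the same protocol, and 4 libraries each of wild-type (WT) untreated, WT with ACM and WT with S1P cells serve as the reference for how large a response can be. The sources used here give neither the knockout allele nor the medium or vehicle of untreated cells, and they tie no library to an animal or culture. P-values therefore rest on how far these libraries differ, and that variation may be technical only. Each group is also its own run of library numbers, so treatment and that order cannot be told apart.

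Trem2 is an immunoglobulin-family receptor on macrophages and microglia that binds lipids, lipoproteins and debris of dying cells. It signals through the adaptor Tyrobp (DAP12) and the kinase Syk, and in fatty liver and obese adipose tissue it marks lipid-associated macrophages. S1P is a sphingolipid released by apoptotic cells, which acts on its own family of G protein-coupled receptors, and engulfed or dissolved products of dying cells are known to switch macrophages toward lipid export, lipid burning and antioxidant defence.

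The targeted gene was lower in the knockout libraries but not absent. Trem2 (chr17:48346401-48354147, GRCm38) stood at 40.2, 35.7 and 38.9 FPKM in the 3 untreated knockout libraries, at 36.8, 40.5, 40.2 and 39.4 with ACM and at 38.5, 40.1, 39.1 and 40.7 with S1P. FPKM is the number of fragments scaled to exon length and to the mapped fragments of the library. WT untreated libraries had 74.5 to 82.7. Since Trem2 decided which untreated library was left out, its levels in the knockout are given as a description, with no test. FPKM sums reads over the whole gene, so a lower level does not show which exons are missing. In WT cells it rose with treatment, by 0.31 ± 0.037 on the log2(FPKM + 1) scale (± SE throughout, limma adjusted p = 6.7e-07). The library labelled knockout untreated 81 had 79.6 FPKM and went against its label.

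The 11 libraries held 16.7M to 25.2M recovered reads, and 21 of 21 core macrophage genes passed the filter on low values, with a summed level of 9330 to 10064 FPKM. Of the hepatocyte markers, Alb, Apoa1, Ttr and Hnf4a were at 0 in every knockout library, treated ones included, and the summed level of the list was 1.93 to 2.54 FPKM in untreated and 1.71 to 2.52 FPKM in treated libraries. The fibroblast and the lymphoid, mast and erythroid marker lists had 0 members past the filter. Markers of granulocytes summed to 117 to 127 FPKM in untreated, 123 to 131 FPKM in ACM and 125 to 128 FPKM in S1P libraries. Monocyte markers summed to 113 to 117, 110.0 to 122 and 118 to 132 FPKM in the same groups. Their part in the results was not tested, and in bulk RNA fewer cells of a type and less RNA per cell cannot be told apart.

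Without intact Trem2 the transcriptome of treated macrophages lay almost on top of that of untreated ones. Of 11093 genes tested, 3 were called at a limma adjusted p under 0.05 (0.027%), 1 higher (0.00901%) and 2 lower (0.018%). That fit keeps ACM and S1P as separate groups and averages them, and with the 8 treated libraries as 1 group 0 genes were called. Gm23772, 1 of the 2 lower genes, passed the filter on low values only through the untreated libraries. At an unadjusted p under 0.05 there were 1299 genes (11.7%), 741 higher (6.68%) and 558 lower (5.03%), and for 374 genes (3.37%) the 8 treated and 3 untreated libraries did not overlap. The same contrast in WT cells called 5207 genes (46.9%), 2538 higher (22.9%) and 2669 lower (24.1%), over the same genes. When libraries were rescaled to a common sum (TPM), 1 gene was called in the knockout and 4668 in WT, the latter split into 1234 higher and 3434 lower. With library 81 counted as untreated, 0 genes were called in the knockout and 4983 in WT.

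Distances between whole libraries gave the same picture. Knockout libraries of 1 group lay 0.197 to 0.248 apart (root mean square difference of log2(FPKM + 1) over genes, 15 pairs, median 0.215), and a treated and an untreated knockout library lay 0.203 to 0.260 apart (24 pairs, median 0.224). Treated and untreated WT libraries lay 0.268 to 0.497 apart (32 pairs, median 0.314). Library 81 lay 0.287 to 0.308 from the other knockout libraries and 0.232 to 0.245 from WT libraries with ACM.

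**Figure D1:**
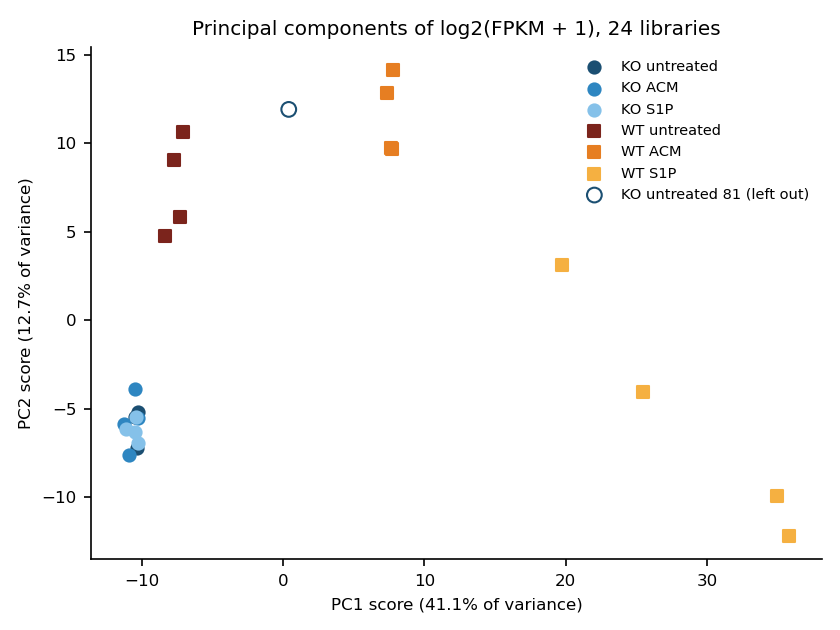
Scores of the 24 libraries on the first 2 principal components of log2(FPKM + 1), which hold 41.1% and 12.7% of the variance. Circles are knockout (KO) and squares WT libraries. The 11 knockout libraries form 1 cluster in which treated and untreated libraries mix, while WT libraries spread by treatment along PC1, and the open circle, library 81, lies apart from the other knockout libraries.

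Intervals were narrow for most genes. The median half-width of the 95% interval of the knockout difference was 0.105, and the interval lay within 0.5 log2 units of 0 for 10438 of 11093 genes (94.1%) and within 1 log2 unit for 10890 (98.2%). The median size of a difference, without its sign, was 0.044 in the knockout and 0.12 in WT.

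Rbm3 (chrX:8138975-8145880), which encodes an RNA-binding protein induced by cold, stood at 28.98, 28.8 and 29.8 FPKM in untreated knockout libraries. It stood at 36.99, 40.3, 41.8 and 41.7 with ACM and at 34.04, 33.3, 35.4 and 36.1 with S1P. Each treated library lay above each untreated one, and Rbm3 rose by 0.34 ± 0.038 (limma adjusted p = 0.017). The rise was 0.45 ± 0.043 with ACM and 0.24 ± 0.043 with S1P, the latter at a limma adjusted p of 0.051, and the agents share the untreated libraries. WT cells went the other way, from 42.3, 45.4, 40.1 and 42.7 FPKM untreated to 30.1 to 39.9 treated (-0.27 ± 0.040, limma adjusted p = 9e-06), and the difference between genotypes was 0.62 ± 0.059 (limma adjusted p = 1.5e-07).

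Neat1 (chr19:5824708-5845478), the long noncoding RNA that builds nuclear paraspeckles, stood at 20.5, 24.6 and 21.4 FPKM untreated. It stood at 15.6, 15.8, 14.4 and 15.997 with ACM and at 18.8, 17.01, 17.96 and 18.1 with S1P, again without overlap. It fell by 0.39 ± 0.05 on the log2 scale (limma adjusted p = 0.043), with a difference of -0.49 for ACM and -0.29 for S1P. In WT it rose by 0.43 ± 0.068, from between 12.96 and 14.3 to between 13.9 and 25.3 FPKM, and the genotypes differed by -0.82 ± 0.10 (limma adjusted p = 4e-06). Untreated knockout libraries lay outside the WT untreated range, below it for Rbm3 and above it for Neat1, and treated ones lay nearer to it. Library 81 had 38.2 FPKM of Rbm3 and 13.4 FPKM of Neat1.

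The third, Gm23772 (chr11:22846868-22846969), is a predicted small nucleolar RNA of 102 bases, a class that oligo(dT) capture does not target. Its 5, 3 and 4 reads in untreated libraries compare with 1, 0, 0 and 0 reads with ACM and 1, 0, 0 and 1 with S1P, a difference of -1.26 ± 0.17 (limma adjusted p = 0.049). The level rests on a handful of reads in each library, and the gene's difference between genotypes was not called (limma adjusted p = 0.057). Gm23772 passed the filter on low values only through the untreated libraries, at 1.95, 1.64 and 1.76 FPKM. Treated libraries had no more than 0.517 FPKM. Since its high untreated values let it be tested, its call is given as a description and is no support for a fall.

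With the 8 treated libraries as 1 group none of the 3 was called, at limma adjusted p-values of 0.14 for Rbm3, 0.14 for Neat1 and 0.073 for Gm23772. All 3 calls also hung on single libraries. Rbm3 was no longer called without untreated library 79, 80 or 82 or S1P library 93 (limma adjusted p 0.064 to 0.13), at values of 0.34 to 0.36. Neat1 was no longer called without untreated library 79, 80 or 82, ACM library 85, 87 or 88, or S1P library 92 or 93 (0.058 to 0.22), at -0.44 to -0.32. Gm23772 was no longer called without untreated library 79, 80 or 82, ACM library 87 or 88, or S1P library 92 or 93 (0.064 to 0.25). With library 81 added, Rbm3 differed by 0.25, Neat1 by -0.22 and Gm23772 by -1.06, at limma adjusted p-values of 0.30, 0.52 and 0.15.

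**Figure D2:**
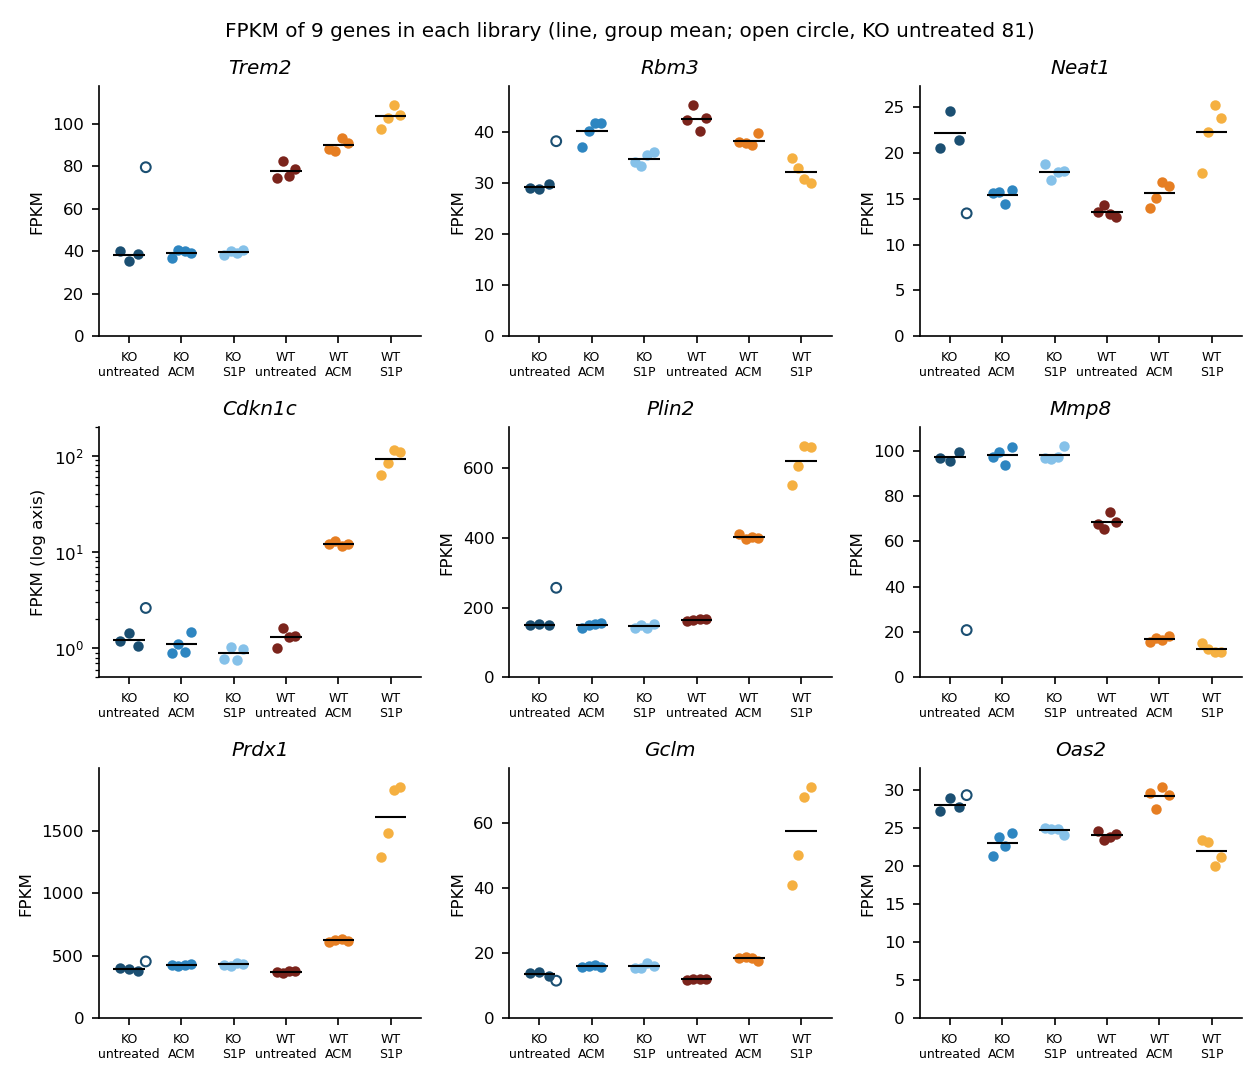
FPKM of 9 genes in each library, by genotype and treatment, with the group mean as a line and library 81 as an open circle (not in the mean). The Cdkn1c panel has a log axis and the others start at 0. For Trem2, Cdkn1c, Plin2 and Mmp8 the pooled treated knockout libraries overlap the untreated ones. Rbm3, Neat1, Prdx1, Gclm and Oas2 differ between untreated and treated knockout libraries without overlap, and of these Rbm3 and Neat1 were called.

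Taken alone, each agent also left few calls in knockout cells. ACM called 3 genes (0.027%), 1 higher (0.00901%) and 2 lower (0.018%), namely Rbm3, Neat1 and F630028O10Rik, a predicted transcript that stood at 15.9, 17.96 and 14.7 FPKM untreated and 9.95, 10.6, 10.1 and 10.9 with ACM (-0.59 ± 0.079, limma adjusted p = 0.040) and at 14.7, 13.3, 15.3 and 17.3 with S1P. S1P called 23 genes (0.207%), 6 higher (0.0541%) and 17 lower (0.153%). The counts moved with single libraries, from 2 to 7 for ACM (7 without S1P library 91) and from 0 to 20 for S1P (0 without S1P library 93, 1 without untreated library 82). Under TPM scaling ACM called 0 and S1P 1, and both were 0 with library 81 added.

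Among the genes that S1P raised in knockout cells was Trem1, the inflammatory relative of Trem2 that also signals through Tyrobp. It stood at 19.2, 15.9 and 17.0 FPKM untreated, at 23.6, 21.1, 22.4 and 22.1 with S1P (0.34 ± 0.055, limma adjusted p = 0.042) and at 18.8, 18.3, 18.3 and 19.4 with ACM. The 4 S1P libraries lay above all 3 untreated ones. In WT cells Trem1 fell, from between 11.1 and 12.4 to between 4.23 and 8.97 FPKM, and the genotypes differed over both agents by 0.96 ± 0.13 (limma adjusted p = 1.6e-05). Pgd, an enzyme of the pentose phosphate pathway that makes NADPH, stood at 86.3, 81.2 and 84.9 FPKM untreated and 93.8, 91.9, 92.8 and 92.4 with S1P (0.14 ± 0.024, limma adjusted p = 0.048).

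The genes that fell with S1P included a pair of closely related receptors. Lilrb4a, which carries inhibitory motifs and dampens myeloid activation, stood at 166, 177 and 156 FPKM untreated and 109, 98.02, 119 and 123 with S1P (-0.57 ± 0.083, limma adjusted p = 0.037), against 162, 184, 149 and 169 with ACM. Its near-identical neighbour Lilr4b stood at 286, 284 and 270.5 and 204, 200.2, 223 and 240.1 FPKM (-0.37 ± 0.056, limma adjusted p = 0.037). Reads shared by near-identical copies can be split between them, so these 2 are not independent. Tcirg1, a subunit of the proton pump that acidifies lysosomes, fell by 0.21 ± 0.03 from 153, 151 and 153 to 127, 127, 132 and 138 FPKM (limma adjusted p = 0.042). Slc27a1, a fatty acid transporter, stood at 69.005, 71.96 and 71.9 FPKM untreated and 59.3, 60.7, 61.8 and 63.4 with S1P (-0.21 ± 0.027, limma adjusted p = 0.021). Leng8 and Ccnl2, both linked to RNA processing, differed by -0.41 and -0.23 (limma adjusted p 0.048 and 0.014).

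Set directly against each other in knockout cells, ACM and S1P differed in 26 genes (0.234%), 19 higher (0.171%) and 7 lower (0.0631%) with ACM. Tnf, an inflammatory cytokine, stood at 38.4, 41.5, 41.6 and 39.6 FPKM with ACM and 30.3, 30.5, 31.6 and 33.7 with S1P (0.34 ± 0.037, limma adjusted p = 0.009), on either side of 35.7, 34.96 and 34.8 untreated. Cxcl2, a neutrophil chemokine, stood at 15.8, 17.3, 19.9 and 16.4 and 12.4, 13.1, 12.2 and 12.98 FPKM (0.42 ± 0.060, limma adjusted p = 0.015), and Fos, an immediate early transcription factor, at 11.7, 15.2, 13.9 and 12.2 and 9.45, 9.71, 8.76 and 8.97 (0.47 ± 0.068, limma adjusted p = 0.016). Tgm2, a transglutaminase tied to the uptake of apoptotic cells, was lower with ACM (-0.24 ± 0.042, limma adjusted p = 0.049). Under TPM scaling 7 genes differed, 6 higher and 1 lower, and the count ran from 13 (without S1P library 91) to 38 (without ACM library 86) as single libraries were left out.

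Genes that responded in WT had no common direction with the knockout. Of the 5207 genes called in WT, 2 were called in the knockout, Rbm3 and Neat1, both with the opposite sign, and 2495 (47.9%) had the same sign in both genotypes. For 3568 of them (68.5%) the difference between genotypes was itself called. It contains the WT difference by which these genes were picked, so this share is not independent support. Over all genes tested the interaction of genotype and treatment was called for 3803 (34.3%), 2041 higher (18.4%) and 1762 lower (15.9%) in the knockout relative to WT. TPM scaling gave 1904 higher and 881 lower. With ACM alone it was called for 1656 genes (14.9%), 699 higher (6.3%) and 957 lower (8.63%), or 1006 higher and 301 lower under TPM scaling, and with S1P alone for 4621 (41.7%), 2527 higher (22.8%) and 2094 lower (18.9%).

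Of the 77 genes that moved by at least 1 log2 unit in WT, 53 up and 24 down, 71 differed between genotypes. These genes were picked by their WT difference, which the interaction contains, so this share is not independent support. Their knockout difference had a median of 0.046 and ran from -1.60 to 0.60, and for 67 its 95% interval lay within 0.5 log2 units of 0. The 6 without a called difference between genotypes were small RNAs, namely mt-Te, Snord91a, Snord87, Gm25911, Gm24187 and Mir1943. As a description across genes, which are not independent replicates, the slope of the knockout on the WT difference was -0.018 over the genes called in WT.

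**Figure D3:**
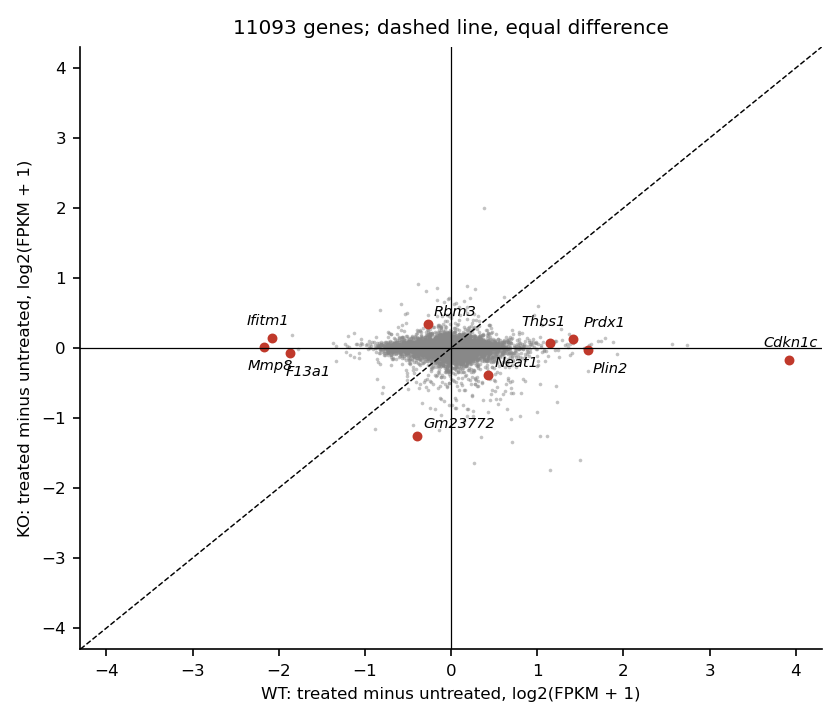
Difference between treated and untreated libraries in WT (horizontal) and knockout cells (vertical) for 11093 genes, on the log2(FPKM + 1) scale, with named genes in red. The points spread along the horizontal axis and not along the dashed line of equal difference: Cdkn1c is at 3.92 in WT and -0.16 in the knockout.

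Among the genes with the smallest p for the difference between genotypes was Cdkn1c, the cell cycle inhibitor p57. It stood at 1.19, 1.45 and 1.06 FPKM in untreated knockout libraries, at 0.904, 1.11, 0.911 and 1.49 with ACM and at 0.768, 1.03, 0.757 and 0.992 with S1P. The ACM libraries overlapped the untreated ones and the S1P libraries lay just below them. WT libraries went from 0.999, 1.61, 1.31 and 1.34 FPKM to 12.2, 13.1, 11.6 and 12.2 with ACM and 63.4, 84.4, 115 and 111 with S1P, and the genotypes differed by -4.08 ± 0.17 (limma adjusted p = 1e-12). Plin2, the protein that coats lipid droplets, stood at 149, 153 and 151 FPKM untreated and 140.5 to 155 treated in the knockout, with a difference of -0.028 ± 0.033 and a 95% interval of -0.10 to 0.044. In WT it rose from between 161 and 167 to between 398 and 409 with ACM and between 550.0 and 664 with S1P, and the genotypes differed by -1.62 ± 0.058 (limma adjusted p = 1.3e-13).

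A pair of other lipid genes also rose in WT and were not called in the knockout. Lipa, the acid lipase of the lysosome, stood at 283, 296 and 299 FPKM untreated and 276 to 304 treated in the knockout (-0.056 to 0.049, 95% interval of the difference), and rose by 0.82 ± 0.028 in WT. Cpt1a, the gate of mitochondrial fatty acid oxidation, stood at 21.99, 23.5 and 24.2 and 22.5 to 25.2 FPKM (-0.057 to 0.12), and rose by 0.83 ± 0.035 in WT. The interactions were -0.82 ± 0.041 and -0.80 ± 0.052 (limma adjusted p 1.5e-11 and 8.8e-10).

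Surface and secreted proteins and a ubiquitin ligase were among them as well. Thbs1, thrombospondin 1, stood at 16.5, 17.5 and 17.5 FPKM untreated and 17.4 to 19.6 treated in the knockout, already above the 9.23 to 9.71 of untreated WT libraries, and the genotypes differed in response by -1.08 ± 0.050 (limma adjusted p = 4.5e-12). Cd53, a tetraspanin of leukocytes, and Sema4d, a semaphorin, differed in response by -0.85 ± 0.058 and -0.67 ± 0.034, and Trim25, a ubiquitin ligase of antiviral sensing, by -0.57 ± 0.036 (limma adjusted p 1.6e-09, 2.2e-11 and 5.5e-10). In the knockout, Cd53 lay at 393 to 412 FPKM untreated and 379.6 to 409 treated, and Sema4d at 42.98 to 43.8 and 41.996 to 46.2.

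Other genes were lowered by treatment in WT and not called in the knockout. Mmp8, a collagenase first known from neutrophils, stood at 96.99, 95.5 and 99.3 FPKM untreated, at 97.1, 99.4, 93.9 and 102 with ACM and at 96.8, 96.3, 97.4 and 102 with S1P, a difference of 0.012 ± 0.028 with a 95% interval of -0.050 to 0.074. WT libraries fell from between 65.6 and 72.9 to between 11.04 and 18.2 FPKM, and the genotypes differed by 2.18 ± 0.084 (limma adjusted p = 2.6e-13). Ifitm1, an antiviral membrane protein of monocytes, lay at 64.1 to 69.2 FPKM untreated and 64.5 to 80.9 treated, and F13a1, the coagulation factor XIII subunit of monocytes, at 21.1 to 22.2 and 15.8 to 24.01. In WT they fell by 2.08 ± 0.06 and 1.87 ± 0.07, and the interactions were 2.23 ± 0.094 and 1.80 ± 0.11 (limma adjusted p 1e-12 and 1.8e-10). Pf4, a chemokine also made by macrophages, lay at 935 to 986 and 940.3 to 1041 FPKM in the knockout, and its interaction was 0.88 ± 0.047 (limma adjusted p = 3.6e-11). Untreated knockout and untreated WT libraries did not overlap for Mmp8, Ifitm1, F13a1 or Pf4, all higher in the knockout.

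The lipid lists gave no calls in the knockout. Of 24 cholesterol synthesis and uptake genes that passed the filter, 0 were called. Of their differences 18 were above 0, beside 5920 of 11093 for all genes. At an unadjusted p under 0.05, 3 were higher and 0 lower, beside 6.68% and 5.03% of all genes. The median difference was 0.022, beside a median of 0.0051 over all genes tested. In WT 24 of 24 fell, beside 24.1% of all genes, and the median was -0.52. The difference between genotypes was called for 23, all higher in the knockout, beside 18.4% of all genes. Idi1, an isomerase of the mevalonate pathway, stood at 9.72, 9.79 and 9.35 FPKM untreated and 9.48 to 10.9 treated in the knockout, against 9.79 to 11.4 and 2.89 to 6.19 in WT. Hmgcs1, which makes HMG-CoA, stood at 20.1, 21.4 and 22.03 and 21.4 to 24.1 FPKM in the knockout, against 20.7 to 23.7 and 9.85 to 15.6 in WT. The knockout differences were 0.072 ± 0.030 and 0.088 ± 0.038, and those of Fdft1 and Msmo1, further enzymes of the route, were 0.060 ± 0.030 and 0.068 ± 0.024 (limma adjusted p 0.30 to 0.47 over the 4).

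Fatty acid synthesis and targets of the sterol sensor LXR gave 0 calls among 18 genes, with a median of 0.011. WT gave 1 higher, 13 lower and a median of -0.33. This and the next WT counts stand beside 22.9% higher and 24.1% lower over all genes. Fasn, the fatty acid synthase, stood at 34.2, 35.5 and 38.2 FPKM untreated and 32.6 to 34.9 treated in the knockout (-0.073 ± 0.035), and in WT it fell from between 36.7 and 37.9 to between 12.9 and 21.6, an interaction of 1.00 ± 0.062 (limma adjusted p = 3.8e-10). Scd1, the desaturase, lay at 39.7 to 44.2 and 37.7 to 42.3 FPKM and Aacs, which feeds acetoacetate into lipid synthesis, at 24.1 to 26.3 and 24.5 to 26.04, with interactions of 0.76 ± 0.048 and 0.81 ± 0.047 (limma adjusted p 5.5e-10 and 1.4e-10). Abcg1, a cholesterol exporter, differed by -0.086 ± 0.035 in the knockout (limma adjusted p = 0.36). Fatty acid oxidation gave 0 calls among 22 genes with a median of 0.024 (WT 11 higher, 2 lower), and the lipid droplet list 0 among 10 with a median of 0.019 (WT 6 higher, 2 lower). Of 23 genes of the lipid-associated macrophage program, the signature Trem2 is best known for, 0 were called, with a median of 0.032. Cd9, a tetraspanin of that program, stood at 174, 170.2 and 171 FPKM untreated and 181 to 193 treated (0.11 ± 0.020, limma adjusted p = 0.088), without overlap.

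Proliferation genes gave no calls in the knockout. Of 30 cell cycle genes 0 were called in the knockout, and 23 differences were above 0, beside 5920 of 11093 for all genes. At an unadjusted p under 0.05, 4 were higher and 0 lower, beside 6.68% and 5.03% of all genes. The median was 0.027, beside 0.0051 for all genes. In WT 30 of 30 fell, beside 24.1% of all genes, with a median of -0.73. The difference between genotypes was called for 30 of 30, all higher in the knockout, beside 18.4% of all genes. By agent, the WT fall was called for 19 of 30 with ACM (median -0.31) and 30 of 30 with S1P (median -1.19). Over all genes it was called for 1252 and 3172 of 11093. The difference between genotypes was called for 1 and 30, all higher in the knockout, beside 6.3% and 22.8% of all genes. Mki67, the proliferation antigen Ki-67, stood at 74.2, 73.8 and 71.2 FPKM untreated, at 77.2, 77.4, 71.3 and 71.3 with ACM and at 75.3, 69.4, 70.6 and 71.7 with S1P, against 76.9 to 88.7 and 24.6 to 63.7 in WT. Cdk1, the mitotic kinase, stood at 24.1, 21.9 and 22.9 FPKM untreated and 23.7 to 24.96 treated in the knockout (0.080 ± 0.028), and Pcna, the sliding clamp of DNA synthesis, at 178, 172 and 174 and 179 to 199.7 (0.12 ± 0.030, without overlap, limma adjusted p = 0.18). The helicase subunits Mcm3 and Mcm5 differed by 0.070 ± 0.028 and 0.080 ± 0.029 (limma adjusted p 0.35 and 0.30).

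**Figure D4:**
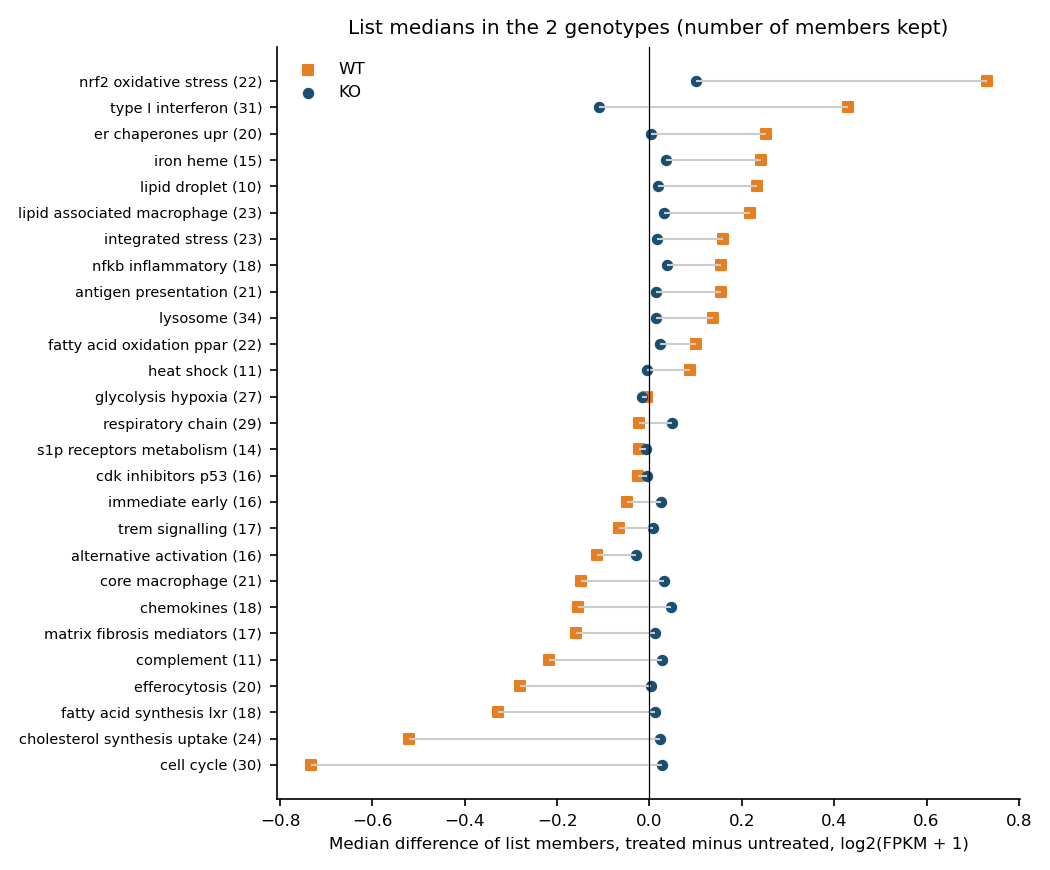
Median difference between treated and untreated libraries over the members of each gene list, on the log2(FPKM + 1) scale, in WT (squares) and knockout cells (circles), with the number of members past the filter in brackets. WT medians run from -0.73 to 0.73. The knockout medians lie between -0.11, for the type I interferon list, and 0.10, for the NRF2 list.

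Of the lists in the plot of medians, the NRF2 list had the highest knockout median. NRF2 is the transcription factor that answers oxidative stress, by binding antioxidant response elements near genes for glutathione synthesis, peroxide removal and NADPH supply. Of 22 members past the filter (of 24) 0 were called over both agents, but 21 of 22 differences were above 0, with a median of 0.10, beside 5920 of 11093 for all genes. At an unadjusted p under 0.05, 13 were higher and 0 lower, beside a background of 6.68% higher. For 9 members the 8 treated libraries all lay above the 3 untreated ones, beside 1.95% of all genes. In WT 21 members rose, beside 22.9% of all genes, with a median of 0.73. Of the members 19 differed between genotypes, all lower in the knockout, beside 15.9% of all genes. The median stayed above 0 under every alternative, from 0.065 with library 81 added to 0.11. The count of 13 fell to 1 under TPM scaling and to 6 in a fit that shares the spread with WT libraries. Over all genes, the unadjusted counts of 741 higher and 558 lower became 68 and 461 under TPM scaling. In the fit with shared spread they became 550 and 435. The share of summed FPKM taken by Gm23935, a transcript of 57 bases that TPM scaling weighs heavily, was 9.55 to 13.5% in untreated and 4.38 to 18.6% in treated knockout libraries, and its part in the result was not tested.

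The members with the smallest p-values show how small the difference was. Gclm, the modifier subunit of the enzyme that starts glutathione synthesis, stood at 13.8, 14.3 and 12.99 FPKM untreated, at 15.8, 16.2, 16.3 and 15.7 with ACM and at 15.4, 15.5, 16.9 and 16.1 with S1P. All treated libraries lay above the untreated ones, at a difference of 0.21 ± 0.035 (limma adjusted p = 0.083). In WT it rose from between 11.8 and 12.03 to between 17.6 and 18.9 with ACM and between 40.9 and 71.3 with S1P, an interaction of -1.16 ± 0.14 (limma adjusted p = 2.1e-06). Prdx1, an abundant peroxidase, stood at 402, 391 and 381 FPKM untreated, at 424, 416, 429.6 and 436 with ACM and at 423, 420.1, 443 and 434 with S1P, a difference of 0.13 ± 0.025 (limma adjusted p = 0.093). WT libraries went from between 363 and 377 to between 611 and 635 with ACM and between 1287 and 1851 with S1P, an interaction of -1.29 ± 0.094 (limma adjusted p = 3.6e-09).

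Txnrd1, the thioredoxin reductase, stood at 43.4, 41.1 and 40.6 FPKM untreated and 44.02 to 46.8 treated (0.12 ± 0.027), and Srxn1, which repairs oxidised peroxiredoxins, at 40.2, 39.1 and 39.3 and 41.1 to 46.5 (0.14 ± 0.036), both without overlap (limma adjusted p 0.14 and 0.18). Blvrb, a biliverdin reductase of haem breakdown, stood at 46.7, 47.1 and 48.2 and 49.4 to 55.1 FPKM (0.13 ± 0.030, limma adjusted p = 0.15). Nqo1, a quinone reductase and a common gauge of NRF2, overlapped between groups, with 7.17, 7.63 and 6.64 FPKM untreated, 8.31, 8.98, 7.68 and 7.55 with ACM and 6.64, 7.71, 7.36 and 7.84 with S1P. In WT Nqo1 rose from between 4.28 and 5.73 to between 8.24 and 39.3 FPKM, an interaction of -1.64 ± 0.12 (limma adjusted p = 2.9e-09).

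The sequences upstream of Gclm and Prdx1 are shown because both hold the core of the antioxidant response element. The core was searched as TGACNNNGC on both strands in windows from 250 bases before to 50 after the start of transcription, taken from RefSeq on GRCm38.p6, and these are the 2 members with the smallest unadjusted p that hold it before the start. Capitals mark the match, which begins 134 bases before the start in Gclm (chr3:122245307-122245606, plus strand) and 133 bases before it in Prdx1 (chr4:116685349-116685648, plus strand).
Gclm: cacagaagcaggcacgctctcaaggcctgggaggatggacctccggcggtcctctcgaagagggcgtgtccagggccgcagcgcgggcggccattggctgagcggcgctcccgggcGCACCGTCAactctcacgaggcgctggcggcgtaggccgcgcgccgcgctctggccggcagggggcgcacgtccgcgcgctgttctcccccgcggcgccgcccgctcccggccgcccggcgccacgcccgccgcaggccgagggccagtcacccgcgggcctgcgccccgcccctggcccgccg
Prdx1: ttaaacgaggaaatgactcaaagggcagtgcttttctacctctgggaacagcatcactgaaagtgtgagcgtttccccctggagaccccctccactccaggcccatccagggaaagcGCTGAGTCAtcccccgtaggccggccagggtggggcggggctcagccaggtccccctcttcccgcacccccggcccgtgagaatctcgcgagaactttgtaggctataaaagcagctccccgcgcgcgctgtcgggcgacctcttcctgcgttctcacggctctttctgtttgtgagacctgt
Of 22 members 17 had a window, and 7 of these (41.2%) held the core, against 3781 of 27025 genes (13.99%). A match describes letters and is not evidence of binding. The list holds genes of the pathway that uses this element, so its larger share says nothing about the knockout differences.

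The other stress lists had medians nearer 0. The integrated stress list had 0 calls among 23 genes and a median of 0.016 (WT 13 higher, 5 lower). The endoplasmic reticulum chaperones had 0 among 20 with a median of 0.0043 (WT 17 higher). Heat shock genes had 0 among 11 with a median of -0.0063 (WT 6 higher, 1 lower). Over all genes, 22.9% were called higher and 24.1% lower in WT. Trib3, a pseudokinase induced by amino acid and lipid stress, stood at 9.22, 9.21 and 8.82 FPKM untreated and 8.35 to 10.99 treated in the knockout (0.11 ± 0.064), and at 8.603 to 9.103 and 19.1 to 57.8 in WT, an interaction of -1.60 ± 0.14 (limma adjusted p = 4.9e-08). Atf4, the transcription factor at the centre of the response, lay at 98.2 to 105 and 103 to 116 FPKM in the knockout, and its target Nupr1 stood at 6.23, 6.31 and 6.37 and 5.20 to 6.201 (-0.15 ± 0.047, limma adjusted p = 0.27), lower in all treated libraries.

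The type I interferon list had the lowest knockout median. These genes are switched on by the interferon receptor through a complex that holds Stat2 and Irf9, and encode antiviral sensors and effectors. Of 31 members, all past the filter, 0 were called, 30 had a difference below 0 and the median was -0.11, beside 5173 of 11093 genes below 0. At an unadjusted p under 0.05, 16 were lower and 0 higher, beside a background of 5.03% lower, and for 2 the groups did not overlap (1.42% of all genes, treated lower). In WT 27 rose, beside 22.9% of all genes, with a median of 0.43. Of the members 28 differed between genotypes, all lower in the knockout, beside 15.9% of all genes. By agent, WT rose in 30 members with ACM (median 0.67) and in 14 with S1P, where 2 fell (median 0.16). Of all 11093 genes, 1520 rose with ACM, and 2888 rose and 3172 fell with S1P. The difference between genotypes was called for 29 members with ACM, all lower in the knockout, and for 16 with S1P, 15 lower and 1 higher. Over all genes it was called lower for 8.63% with ACM, and lower for 18.9% and higher for 22.8% with S1P. The median knockout difference over both agents ranged from -0.33, with library 81 added, to -0.086, and stayed below 0 under every alternative. The count of 16 fell to 9 without untreated library 80 and to 8 without untreated library 82. It fell to 11 under TPM scaling and to 5 in a fit that shares the spread with WT libraries. Over all genes, the unadjusted counts of 558 lower and 741 higher also moved. In the same order of settings they were 468 and 472, 372 and 613, 461 and 68, and 435 and 550.

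Oas2, an enzyme that senses double-stranded RNA and makes oligoadenylate, stood at 27.2, 29.01 and 27.8 FPKM untreated, at 21.4, 23.9, 22.6 and 24.4 with ACM and at 25.1, 24.9, 24.9 and 24.1 with S1P. The treated libraries were all lower, at a difference of -0.22 ± 0.037 (limma adjusted p = 0.081). Its relative Oas3 stood at 48.98, 50.3 and 51.2 FPKM untreated, 42.7, 44.9, 41.9 and 46.9 with ACM and 45.6, 49.9, 43.4 and 45.3 with S1P (-0.15 ± 0.042, limma adjusted p = 0.22). In WT Oas3 rose from between 47.4 and 49.9 to between 76.3 and 82.2 with ACM and between 54.6 and 67.99 with S1P, an interaction of -0.65 ± 0.069 (limma adjusted p = 6.2e-07).

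Stat2, which carries the receptor's signal to the nucleus, stood at 44.1, 48.9 and 46.7 FPKM untreated and 40.9 to 44.9 treated (-0.12 ± 0.035), and Ifih1, the cytosolic RNA sensor MDA5, at 10.4, 11.04 and 10.8 and 9.45 to 10.5 (-0.10 ± 0.029), at limma adjusted p-values of 0.24 and 0.22. Irf7, the factor that amplifies the response, stood at 54.8, 62.5 and 63.6 FPKM untreated and 50.5 to 60.1 treated (-0.13 ± 0.058, limma adjusted p = 0.44), with overlap. In WT it rose from between 51.4 and 55.1 to between 108 and 112 with ACM and between 55.2 and 81.8 with S1P, an interaction of -0.81 ± 0.11 (limma adjusted p = 8.1e-06). Library 81 had 113 FPKM of Irf7 and 83.05 FPKM of Oas3, above the other knockout libraries and just above WT libraries with ACM for both. Counting it as untreated therefore lowers the knockout difference of these genes.

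Upstream sequence is shown for Oas3 and Stat2, the 2 members with the smallest unadjusted p whose window holds the interferon-stimulated response element before the start. It was searched as GAAA, any 2 bases and GAAA, on both strands of the same windows. The match, in capitals, begins 75 bases before the start in Oas3 (chr5:120777610-120777909, minus strand) and 222 bases before it in Stat2 (chr10:128270248-128270547, plus strand).
Oas3: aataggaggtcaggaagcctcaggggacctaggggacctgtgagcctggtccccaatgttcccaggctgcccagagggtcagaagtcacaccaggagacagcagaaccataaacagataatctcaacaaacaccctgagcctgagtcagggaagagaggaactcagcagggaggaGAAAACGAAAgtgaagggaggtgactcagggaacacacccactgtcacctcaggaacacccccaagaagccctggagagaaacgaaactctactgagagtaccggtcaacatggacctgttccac
Stat2: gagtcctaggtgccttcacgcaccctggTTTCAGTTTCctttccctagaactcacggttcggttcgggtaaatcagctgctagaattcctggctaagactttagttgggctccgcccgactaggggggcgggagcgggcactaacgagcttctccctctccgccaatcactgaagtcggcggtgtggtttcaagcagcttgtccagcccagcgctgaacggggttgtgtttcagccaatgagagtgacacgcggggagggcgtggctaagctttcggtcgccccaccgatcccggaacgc
The element was present in 12 of the 21 members with a window (57.1%) and in 1079 of 27025 genes (3.99%). As before, a match is not evidence of binding. The list holds genes of the interferon pathway, so its larger share says nothing about the knockout differences.

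**Figure D5:**
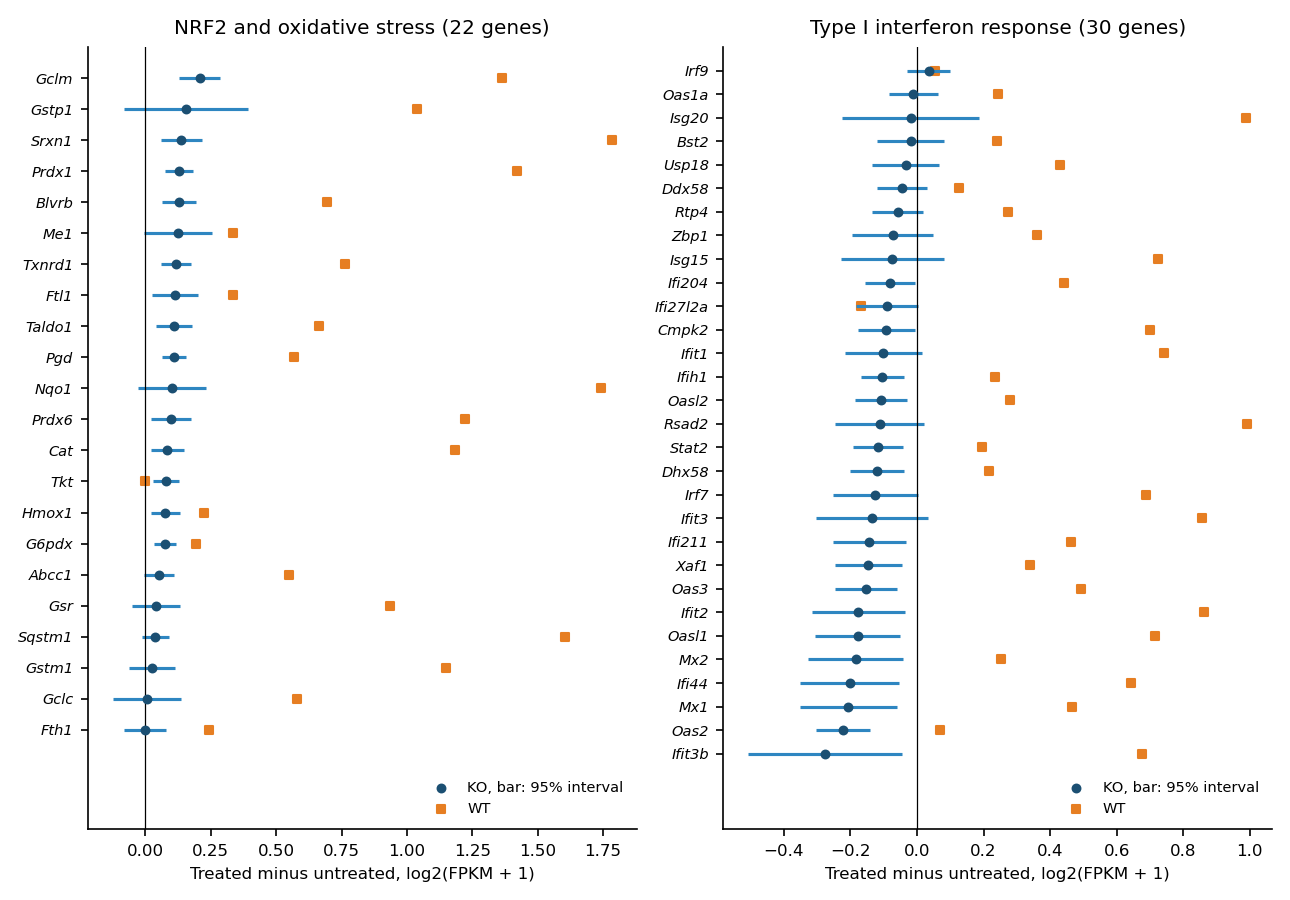
Difference between treated and untreated libraries for the members of the NRF2 list (left) and the type I interferon list (right), on the log2(FPKM + 1) scale. Circles with bars are the knockout difference with its 95% interval and squares the WT difference, and 1 member of the interferon list is not drawn. Knockout values lie between -0.0033 and 0.21 on the left and between -0.28 and 0.035 on the right.

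Inflammatory and immediate early genes gave values on the higher side for a few members. The NF-kB list had 0 calls among 18 genes, 3 higher at an unadjusted p under 0.05, beside 6.68% of all genes, and a median of 0.037. Tlr2, a receptor for bacterial lipopeptides, stood at 19.6, 18.2 and 18.95 FPKM untreated and 20.9 to 22.8 treated (0.18 ± 0.034, limma adjusted p = 0.090), without overlap. Nfkbia, the inhibitor that NF-kB itself induces, stood at 38.1, 34.7 and 34.5 and 38.03 to 44.3 FPKM (0.18 ± 0.044, limma adjusted p = 0.16). Among 16 immediate early genes 0 were called and 4 were higher at an unadjusted p under 0.05, beside the same 6.68%, among them Junb at 36.8, 33.1 and 38.2 FPKM untreated and 38.5 to 44.8 treated (0.18 ± 0.049) and Ier3 at 65.4, 59.5 and 63.7 and 65.2 to 69.7 (0.10 ± 0.030), at limma adjusted p-values of 0.22 and 0.23. Of 18 chemokines 0 were called, with a median of 0.046.

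Macrophage identity genes differed little. Of the 21 core macrophage genes 0 were called, with a median of 0.032. Their differences were above 0 for 13 and below 0 for 8, and at an unadjusted p under 0.05, 5 were higher and 2 lower, beside 6.68% and 5.03% of all genes. Both members described next lay on the lower side. Maf, a transcription factor of mature macrophages, stood at 94.1, 96.4 and 98.2 FPKM untreated and 86.2 to 96.1 treated (-0.10 ± 0.025, limma adjusted p = 0.16), with overlap. Mrc1, the mannose receptor CD206, stood at 454, 472 and 473 FPKM untreated and 408 to 457 treated (-0.095 ± 0.033), where WT fell from between 427 and 453 to between 103 and 290.0.

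Lectins and scavenger receptors of the alternative state lay lower in treated libraries in several cases, without being called. The list had 0 calls among 16 genes, 4 lower and 1 higher at an unadjusted p under 0.05, beside 5.03% and 6.68% of all genes, and a median of -0.030. Clec10a and its close relative Mgl2, galactose-type lectins between which shared reads can be split, stood at 57.99, 56.3 and 61.4 and 73.7, 75.05 and 74.3 FPKM untreated and at 44.9 to 52.8 and 59.7 to 71.1 treated. Their differences were -0.23 ± 0.042 and -0.17 ± 0.041 (limma adjusted p 0.090 and 0.16), without overlap. Cbr2, a carbonyl reductase of resident-like macrophages, stood at 145, 139 and 144 FPKM untreated, 126, 113, 115 and 122 with ACM and 119, 132, 126 and 137 with S1P (-0.20 ± 0.043, limma adjusted p = 0.12). Stab1, the receptor stabilin 1 that takes part in clearing apoptotic cells, stood at 217, 213 and 218 FPKM untreated, 196, 192, 196 and 187 with ACM and 199.6, 206, 201 and 200.1 with S1P (-0.13 ± 0.021, limma adjusted p = 0.077), lower in every treated library. In WT Cbr2 and Stab1 fell by 1.92 ± 0.13 and 1.13 ± 0.08, and the interactions were 1.71 ± 0.20 and 1.00 ± 0.13 (limma adjusted p 1.6e-06 and 4.7e-06).

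Uptake and degradation genes gave 0 calls as well, among 20 efferocytosis genes (median 0.0036) and 34 lysosomal genes (median 0.014). At an unadjusted p under 0.05, 2 efferocytosis genes were higher and 4 lower, and 6 lysosomal genes were higher and 2 lower. Over all genes the shares were 6.68% and 5.03%. Ctsl, the protease cathepsin L, stood at 270.2, 269.7 and 265 FPKM untreated and 274 to 289 treated (0.078 ± 0.022, limma adjusted p = 0.22). Plau and its receptor Plaur, which activate plasmin at the cell surface, were higher in all treated libraries, Plau at 273, 259 and 272 and 275 to 283 FPKM (0.064 ± 0.021) and Plaur at 57.3, 55.4 and 57.4 and 59.3 to 64.7 (0.13 ± 0.025), with limma adjusted p-values of 0.28 and 0.097. Glycolysis and hypoxia genes gave 0 calls among 27, with a median of -0.017 over both agents, -0.072 with ACM and 0.033 with S1P. Respiratory chain genes gave 0 among 29, with 28 differences above 0 and a median of 0.048, beside 5920 of 11093 and 0.0051 for all genes. Sdhd, a subunit of complex II, stood at 86.9, 83.9 and 86.5 and 91.6 to 97.2 FPKM (0.13 ± 0.025, limma adjusted p = 0.097). Nlrc5, which drives class I antigen presentation genes, stood at 10.6, 10.7 and 10.9 and 8.87 to 10.3 FPKM (-0.16 ± 0.032, limma adjusted p = 0.097), lower in all treated libraries, and the antigen presentation list gave 0 calls among 21.

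Of the S1P receptors, S1pr1 and S1pr2 passed the filter in the knockout. S1pr3, S1pr4 and S1pr5 did not, at no more than 0.0805, 1.082 and 0.0394 FPKM in any of the 11 libraries. S1pr1, the main S1P receptor of leukocytes, stood at 37.01, 36.5 and 38.9 FPKM in untreated knockout libraries, at 36.2, 34.5, 35.2 and 36.01 with ACM and at 39.4, 38.3, 38.01 and 38.9 with S1P, and WT untreated libraries had 30.7 to 36.3. S1pr2 stood at 11.2, 11.8 and 11.9 FPKM untreated and 10.8 to 11.8 treated in the knockout, against 11.4 to 12.3 in untreated WT libraries. Of 24 genes of S1P reception and metabolism 14 passed the filter, 0 were called, the differences ran from -0.065 to 0.061 and the median was -0.0066. Sphk2, a kinase that makes S1P, and Cers2, a ceramide synthase, differed by -0.065 ± 0.046 and 0.061 ± 0.025 (limma adjusted p 0.65 and 0.36). The Trem2 partners were not called either, with Tyrobp at 699, 664 and 679 FPKM untreated and 658 to 765 treated (0.060 ± 0.041) and Syk at 42.4, 41.4 and 41.2 and 40.7 to 42.1 (-0.0022 ± 0.019). Of 17 genes of Trem signalling past the filter (of 18) 0 were called over both agents, with differences from -0.19 to 0.22, and Trem1 was the highest. Treml1, a neighbour of Trem2 on chromosome 17, stood at 9.07, 10.6 and 6.97 FPKM untreated and 6.92 to 9.37 treated in the knockout, above the 1.56 to 2.14 of untreated WT libraries and the 1.03 of library 81.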

How the data were processed

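PolyA RNA of 24 macrophage libraries was sequenced, and the authors deposited 1 table of FPKM for 54532 genes. HISAT2 and STAR, the counters featureCounts and StringTie, and edgeR, DESeq and STAR-Fusion appear in the submitters' processing notes beside the build mm10 (GRCm38). The role of each and the strand setting are not given there. Gene names came from GENCODE M21 (54495 matched, 37 did not), and overlapping or near-identical genes can share reads.

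FPKM values are not counts, so limma 3.58.1 (R 4.3.3, trend) was fitted on log2(FPKM + 1) for the 11093 genes at an FPKM of at least 1 in 3 or more of the 11 knockout libraries. Folds on this scale understate changes of low genes. The contrast was the mean of the ACM and S1P groups minus the untreated group, with Benjamini-Hochberg adjustment over all genes tested and calls at an adjusted p under 0.05. WT values and genotype differences came from a fit of 6 groups and 23 libraries, whose spread is shared. FPKM steps gave whole reads for 26093 of 27002 genes above 0 (96.6%, within 0.05 of a whole number), from which depth was derived. Recovered reads of knockout library pairs were compared by chi-square. Per degree of freedom it ran from 2.90 to 11.9 within groups (median 5.17) and from 3.45 to 15.8 between groups (median 5.88). In a separate check, 0 pairs had identical FPKM.

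The members and the gene lists were chosen with earlier results of these data known. Genes were named by a rule: Trem2, called genes above a level of 5 FPKM whose groups do not overlap, the 8 smallest p of the genotype difference in each direction, up to 4 members a list by adjusted p, and the S1P and Trem signalling lists. Nqo1, Irf7, Srxn1, Mki67, Gm23772, F630028O10Rik and the genes named for S1P alone or for ACM against S1P were chosen after their values were seen. Some genes that these rules pick are not reported here. The scripts were tested on simulated data. Alternatives covered the pseudocount, filter, scaling, library 81, the grouping and leaving out each library.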

Additional observations from a re-analysis of the deposited data

Results flagged for a closer look

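In 6 of 168 groups tested, 1 library stood apart by Dixon's test at the 95% level (groups of 4 libraries), where chance gives about 1 group in 20. Fasn was 32.6 FPKM in ACM library 88 of the knockout against 34.6 to 34.9 in the others, and Hadhb, of fatty acid oxidation, was 9.31 there against 8.64 to 8.66. In ACM library 85, Ctsl was 275.3 FPKM against 288 to 289 and Gm23772 was 0.517 against 0. In S1P library 92, Ifitm1 was 80.9 FPKM against 71.2 to 72.6 and Stat2 was 44.5 against 42.5 to 42.7.

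The difference between genotypes in the response to treatment was called by limma for 3803 genes over both agents, 1656 for ACM and 4621 for S1P. Among named genes (log2, knockout minus WT response) it was below 0 for Cdkn1c (-4.08), Nqo1 (-1.64), Plin2 (-1.62), Trib3 (-1.60), Prdx1 (-1.29), Gclm (-1.16), Thbs1 (-1.08), Cd53 (-0.85), Lipa (-0.82), Neat1 (-0.82), Irf7 (-0.81), Cpt1a (-0.80), Sema4d (-0.67), Oas3 (-0.65) and Trim25 (-0.57). It was above 0 for Ifitm1 (2.23), Mmp8 (2.18), F13a1 (1.80), Cbr2 (1.71), Stab1 (1.00), Fasn (1.00), Trem1 (0.96), Pf4 (0.88), Aacs (0.81), Scd1 (0.76) and Rbm3 (0.62).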

How the results depend on the processing

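The count of knockout calls over both agents (3) was 7 without a filter, 11 at an FPKM filter of 5, 1 under TPM scaling, 9 after quantile normalization, and 0 with library 81 or with treated libraries as 1 group. It ran from 0 to 9 as each library was left out. For ACM (3) it was 7 without a filter, 16 at the FPKM filter of 5, 0 under TPM scaling, 8 after median scaling, 9 after quantile normalization, 10 with robust empirical Bayes and 0 with library 81, and 2 to 7 leaving out a library. For S1P (23) it was 11, 40 and 1 with no filter, the FPKM filter of 5 and TPM scaling, 0 with library 81, and 0 to 20 leaving out a library. For ACM against S1P (26) it was 2 without a filter, 7 under TPM scaling, 6 with library 81, and 13 to 38. WT and interaction counts stayed within 1.5 times under each alternative. The causes were not tested. Of 1930 values of 84 named genes under alternatives, 37 lost and 9 gained a call, and 59 changed sign with neither value called. TPM scaling moved the median of all genes from 0.0051 to -0.025.

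No paired analysis was possible because the groups share no replicate numbers. The 3 untreated libraries and their own run of numbers limit each knockout value, and small RNAs rest on few reads.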
